A study of Mus musculus with 4 samples.

Results

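The Cyp2c cytochrome P450 genes followed here in mouse liver were Cyp2c29, Cyp2c37, Cyp2c38, Cyp2c39, Cyp2c40, Cyp2c44, Cyp2c50, Cyp2c54 and Cyp2c55. The array held a named probe set for 8 of these 9 genes, 1 each, among 18193 genes in all, and the expression of Cyp2c40 was not analysed here. The annotation listed Cyp2c44 under its current symbol, Cyp2c23, and it is called Cyp2c44 below. None of the 8 probe sets was annotated to more than 1 gene. Members of this family are close in sequence, and probes were not analysed here, so a signal may include a relative of the named gene. The Cyp2c44 probe set is of the _s_at kind, which can read several transcripts.

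Livers of mice labelled Baf60a LKO, with a liver specific knockout of Baf60a, were compared with livers of wild-type (WT) mice, both on the C57BL/6 background. Both groups ate a high-fat diet for 10 weeks from 6 weeks of age and were starved overnight before the livers were taken. Each group had 2 Affymetrix mouse arrays, each hybridised with an independent pool of RNA. BAF60a is the product of the gene Smarcd1 and belongs to SWI/SNF, a complex that moves nucleosomes. The number and sex of the mice in a pool and the driver of the deletion are not given in the sources used here. Values are log2 expression by robust multi-array average (RMA), so a difference of 1 is a doubling. They have no unit shared between probe sets, and levels are compared only within a probe set.

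CYP2C enzymes are haem proteins of the endoplasmic reticulum that oxidise drugs, steroids and polyunsaturated fatty acids with electrons from the reductase POR. In mouse liver several of them turn arachidonic acid into epoxyeicosatrienoic acids, lipid signals that the epoxide hydrolases degrade, or into hydroxylated products. Transcription of Cyp2c genes in hepatocytes is known to depend on HNF4A and to be inducible through the nuclear receptors CAR and PXR.

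Phage P1 Cre was read at 5.87 and 6.22 in Baf60a LKO arrays, against 2.80 and 2.48 in WT arrays, on the brightest of the 4 Cre control probe sets in Baf60a LKO. Smarcd1 stood at 5.34 and 5.30 in Baf60a LKO and at 5.62 and 5.88 in WT on its brighter probe set, and whether that probe set lies in the deleted part is not known. The 41 probe sets for bacterial transcripts, a gauge of background, reached a 95th percentile between 3.02 and 3.42, depending on the array. Of 45037 probe sets, 84 passed the limma test between the genotypes (Benjamini-Hochberg adjusted p under 0.05), 54 lower and 30 higher in Baf60a LKO. That split moved with the scaling: 51.8% of the calls were lower after a second quantile normalization, 51.2% after cyclic loess and 46.6% with array medians subtracted, against 64.3% on the values as deposited. No probe set passed in limma with any 1 array left out, whereas 3005 and 10697 had an unadjusted p under 0.05 without WT replicate 1 and 2, and 1324 and 1196 without Baf60a LKO replicate 1 and 2. Errors and p-values measure only how far pools of RNA differ. A permutation of 2 arrays against 2 cannot go below an exact two-sided p of 0.333.

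All 8 measured Cyp2c genes were lower in Baf60a LKO livers, in very different degrees. Cyp2c50, Cyp2c54 and Cyp2c37 were lowest, at 7.22% to 7.92% of their WT level on the linear scale. Cyp2c29 was at 14.4% and Cyp2c38 at 41.8%. Cyp2c55, Cyp2c44 and Cyp2c39 kept 59.1% to 62.1%. The genes were chosen by these same differences between Baf60a LKO and WT, so the values are a description and support no test of these genes. A lower mean in Baf60a LKO was seen on 51.6% of all probe sets, and for 49.9% of genes with 1 probe set a gene. On every one of the 8 probe sets both Baf60a LKO arrays lay below both WT arrays, as on 19.4% of all probe sets. The limma fit over the whole array called 0.12% of all probe sets lower, 3 of the 8 among them, a count that follows from the choice of genes and from which nothing is read. The median difference over the 8 was -2.03, beside -0.01 over all probe sets.

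Cyp2c37, Cyp2c54 and Cyp2c50 are neighbours in the RefSeq gene order of chromosome 19. Enzymes of these genes have been described as arachidonic acid epoxygenases or hydroxylases of mouse liver. Cyp2c50 stood at 7.64 and 8.36 in Baf60a LKO arrays, against 11.77 and 11.82 in WT arrays, a difference of -3.79 ± 0.24 (standard error of the limma fit, n = 2 each, as for every difference below). Cyp2c54 stood at 7.84 and 8.26 in Baf60a LKO, against 11.62 and 11.84 in WT, a difference of -3.68 ± 0.18. For Cyp2c37 the values were 6.95 and 7.88 in Baf60a LKO, against 10.87 and 11.28 in WT, a difference of -3.66 ± 0.32. The groups were far from overlapping on all 3, and the 3 differences lay within 0.13 of each other, less than the error of any. With 1 array left out, the differences ran from -4.15 to -3.43 for Cyp2c50, from -3.90 to -3.47 for Cyp2c54 and from -4.12 to -3.20 for Cyp2c37. In rank from the lowest of 45037 differences the 3 probe sets were at 14, 16 and 17.

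**Figure D1:**
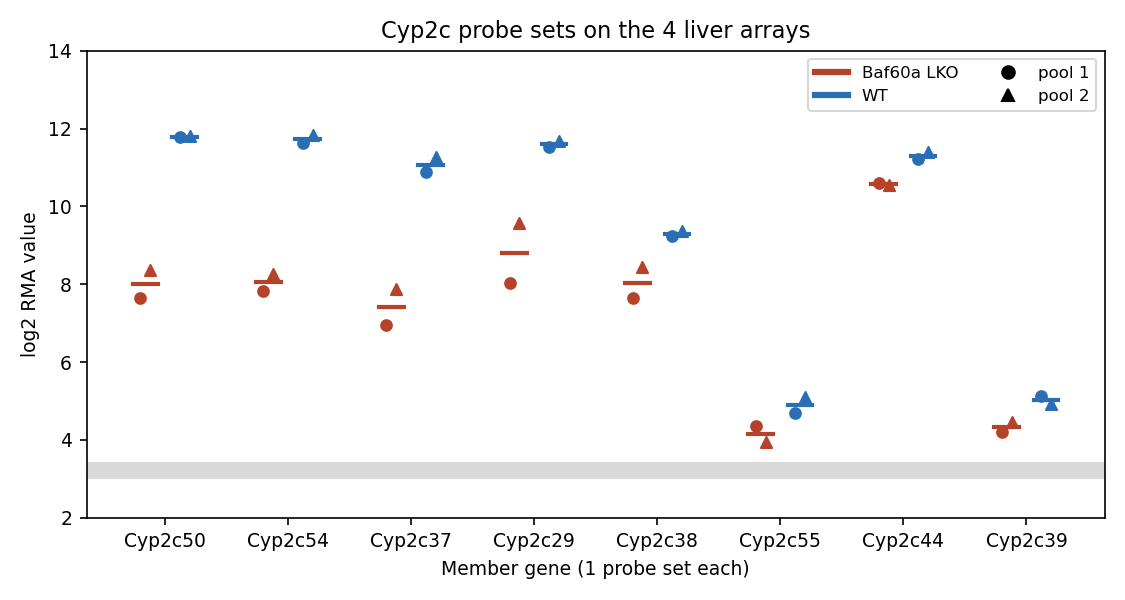
Log2 RMA values (vertical axis) of the 8 Cyp2c probe sets on the 4 arrays, with Baf60a LKO in red on the left of each gene and WT in blue on the right. Circles are pool 1, triangles pool 2, bars group means, and the grey band spans the bacterial 95th percentiles of the arrays, 3.02 to 3.42. Both red points lie below both blue points for each gene, and the red points of Cyp2c29 are the furthest apart, at 8.04 and 9.58.

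Cyp2c29, Cyp2c39 and Cyp2c38 form a second run in the same cluster. Cyp2c29, an abundant liver epoxygenase that is widely used as a readout of CAR activity, stood at 8.04 and 9.58 in Baf60a LKO, against 11.54 and 11.67 in WT, a difference of -2.79 ± 0.47. Its 2 Baf60a LKO arrays differed more than those of any other member, and its difference was -2.02 with the first of these left out and -3.57 with the second left out. Cyp2c38, also an arachidonic acid epoxygenase, stood at 7.64 and 8.43 in Baf60a LKO, against 9.23 and 9.37 in WT, a difference of -1.26 ± 0.27. Cyp2c39, whose enzyme also hydroxylates retinoic acid, stood at 4.21 and 4.46 in Baf60a LKO, against 5.12 and 4.92 in WT, a difference of -0.69 ± 0.15. Cyp2c39 was thus dim on all 4 arrays, though above the bacterial 95th percentiles. RMA compresses differences at low levels, so that of Cyp2c39 may be understated. Cyp2c29 and Cyp2c38, close in chromosomal place, had unequal differences, with Cyp2c29 minus Cyp2c38 at -1.54.

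Cyp2c55 and Cyp2c44 lie at the edge of the cluster and outside it. Cyp2c55, an epoxygenase and hydroxylase gene known mainly from the intestine, stood at 4.35 and 3.94 in Baf60a LKO, against 4.69 and 5.11 in WT, a difference of -0.76 ± 0.21. It too was dim. Cyp2c44, an epoxygenase gene known from liver, kidney and blood vessels, stood at 10.60 and 10.56 in Baf60a LKO, against 11.22 and 11.39 in WT, a difference of -0.73 ± 0.13. Its Baf60a LKO arrays were the closest of all members, 0.04 apart. The difference of Cyp2c50 minus that of Cyp2c44 was -3.06 on the log2 scale.

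The array named 3 further Cyp2c genes, Cyp2c68, Cyp2c70 and Cyp2c65, and none passed the limma test. Their signals too may include a relative of the named gene, also one without a named probe set such as Cyp2c40. Cyp2c68 stood at 10.81 and 11.19 in Baf60a LKO, against 11.43 and 11.36 in WT, a difference of -0.39 ± 0.16 (limma, adjusted p = 0.618). Cyp2c70, known for making muricholic acids from chenodeoxycholic acid in mouse liver, stood at 10.14 and 10.43 in Baf60a LKO, against 11.17 and 10.24 in WT. Its groups overlapped, its difference was -0.42 ± 0.31 (adjusted p = 0.716), and the sign turned to 0.04 without WT replicate 1. Cyp2c65 lay at background, at 2.15 and 2.24 in Baf60a LKO and 2.49 and 2.15 in WT (-0.12 ± 0.16, adjusted p = 0.835, and 0.05 without WT replicate 1).

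In the order of measured genes and members, Cyp2c68 lies between Cyp2c38 and Cyp2c40, and Cyp2c70 directly follows Cyp2c50. Cyp2c66, Cyp2c67 and Cyp2c69 had no value here and are left out of this order. The size of the difference therefore changed from gene to gene along the cluster, from -1.26 at Cyp2c38 to -0.39 at Cyp2c68, -3.66 at Cyp2c37, -3.79 at Cyp2c50 and -0.42 at Cyp2c70. Of the 11 genes outside the family among the 3 nearest measured on each side of a run, 0 passed by limma, 3 had an unadjusted p under 0.05, 3 were lower and 8 higher, and the differences ran from -0.49 to 0.37. On one flank Hells, a chromatin remodeller gene, differed by -0.33 ± 0.20, and on the other Pdlim1 by 0.07 ± 0.14, below 0 after loess or without WT replicate 2. Cyp2c44 lies apart on the same chromosome, between Cpn1 (0.37 ± 0.13) and Erlin1 (0.31 ± 0.15), both higher in mean where Cyp2c44 was lower. Abcc2, the canalicular multidrug exporter, differed by 0.32 ± 0.12 and Dnmbp by -0.49 ± 0.12 on the Cpn1 side.

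**Figure D2:**
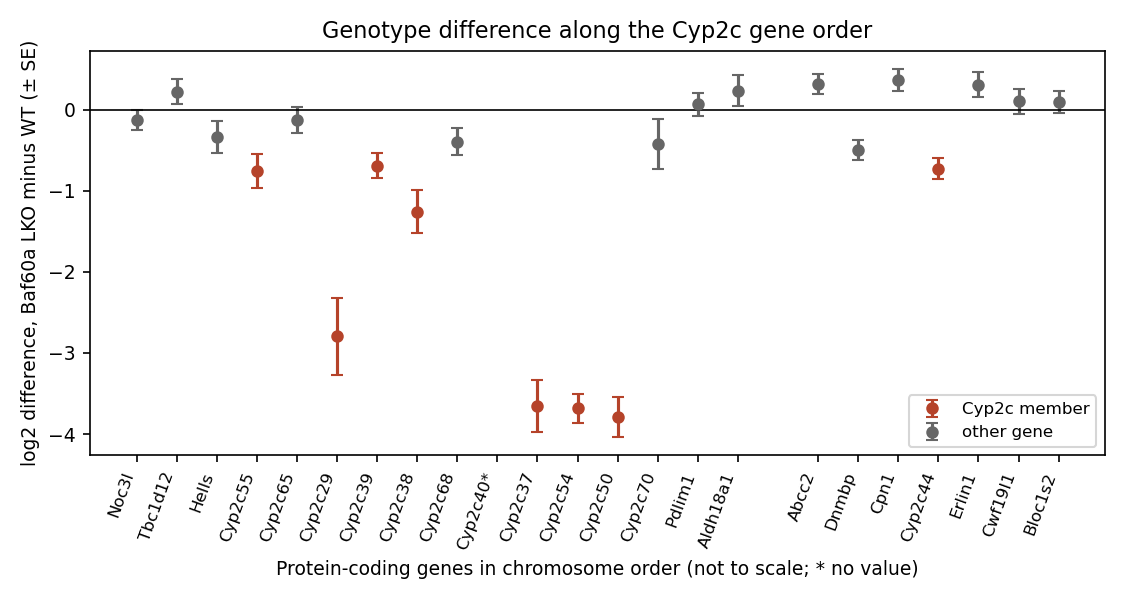
Log2 difference of Baf60a LKO minus WT with its standard error (vertical axis) for the protein-coding genes with a value, in RefSeq order along chromosome 19 (horizontal axis, not to scale). The gap separates the Cyp2c cluster from the region of Cyp2c44, members are red and other genes grey. Cyp2c37, Cyp2c54 and Cyp2c50 sit together near -3.7, and Cyp2c68 and Cyp2c70 on either side are at -0.39 and -0.42. Cyp2c40, without a value, lies between Cyp2c68 and Cyp2c37.

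The start regions of the genes were read from RefSeq (GRCm38.p6) to see which letters the members that moved most share. They are shown for the strongly lowered neighbours Cyp2c37 (chr19:39992174-39992423, plus strand) and Cyp2c50 (chr19:40089429-40089678, plus strand). Next come Cyp2c29 (chr19:39286835-39287084, plus strand) and Cyp2c38 (chr19:39463076-39463325, minus strand), from the other run. Cyp2c68 (chr19:39741102-39741351, minus strand), a bright relative with a small difference, comes last. Each is the 250 bases before the transcription start, with CAAAGT in capitals.
Cyp2c37: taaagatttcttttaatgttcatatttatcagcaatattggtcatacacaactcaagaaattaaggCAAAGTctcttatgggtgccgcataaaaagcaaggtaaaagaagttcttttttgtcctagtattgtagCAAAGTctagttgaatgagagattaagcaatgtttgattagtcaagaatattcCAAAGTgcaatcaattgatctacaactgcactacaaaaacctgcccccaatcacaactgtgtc
Cyp2c50: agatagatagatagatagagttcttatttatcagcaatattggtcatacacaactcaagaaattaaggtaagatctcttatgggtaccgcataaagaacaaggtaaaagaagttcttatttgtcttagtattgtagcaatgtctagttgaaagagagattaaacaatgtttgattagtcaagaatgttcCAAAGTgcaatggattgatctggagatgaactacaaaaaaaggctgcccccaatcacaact
Cyp2c29: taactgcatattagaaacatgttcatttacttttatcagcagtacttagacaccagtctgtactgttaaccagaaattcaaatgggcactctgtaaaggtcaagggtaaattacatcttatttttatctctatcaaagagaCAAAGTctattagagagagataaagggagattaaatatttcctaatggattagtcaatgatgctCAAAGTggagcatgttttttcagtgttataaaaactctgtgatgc
Cyp2c38: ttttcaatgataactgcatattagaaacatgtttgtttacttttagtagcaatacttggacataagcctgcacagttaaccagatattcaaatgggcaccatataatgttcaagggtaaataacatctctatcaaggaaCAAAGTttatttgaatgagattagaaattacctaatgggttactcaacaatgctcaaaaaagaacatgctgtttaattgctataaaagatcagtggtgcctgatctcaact
Cyp2c68: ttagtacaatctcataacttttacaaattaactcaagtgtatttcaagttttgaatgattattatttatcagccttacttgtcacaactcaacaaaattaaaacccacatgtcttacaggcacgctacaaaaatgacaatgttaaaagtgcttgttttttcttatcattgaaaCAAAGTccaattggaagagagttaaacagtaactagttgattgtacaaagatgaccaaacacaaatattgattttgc

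Capitals mark the core of the sequence CAAAGTCCA that the hepatocyte factor HNF4A recognises. CAAAGT was found in 13 of 14 Cyp2c windows and in 7 of the 8 windows of members (Cyp2c39 has 2, and Cyp2c55 was the one without), beside 12.6% of all 32851 windows. The full CAAAGTCCA was in 6 of the 14, of which 1 was a member's, Cyp2c40, and in 0.384% of all windows. A form with 1 letter changed, CAAAGTCTA, was in the windows of Cyp2c29, Cyp2c37 and Cyp2c39, and in 0.225% of all. The window of Cyp2c50 (difference -3.79) had neither form, and that of Cyp2c68 (-0.39) had CAAAGTCCA. Whether these letters bear on the differences was not tested. Both strands were searched, the shorter motif is part of the longer ones, and a match is not a measured binding site.

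Windows of Cyp2c37 and Cyp2c50 were 84.3% identical, and those of Cyp2c29 and Cyp2c38 68.8%. Across the runs the identity was lower, 57.6% for Cyp2c29 with Cyp2c37, and Cyp2c68 was 55.2% identical to Cyp2c37. For scale, the window of Cyp2c55 was 49.2% to 55.8% identical to the other Cyp2c windows. The level for unrelated windows was not measured. The most alike of these pairs also had nearly equal differences, -3.66 and -3.79, whereas Cyp2c29 and Cyp2c38 differed at -2.79 and -1.26. One window of Cyp2c39 was 75.8% identical to that of Cyp2c38 and 74.1% identical to that of Cyp2c29. Its other window was 71.0% identical to that of Cyp2c38 and 68.1% identical to that of Cyp2c29. The difference of Cyp2c39 was -0.69, but this gene was dim on all arrays, so that value may be understated. Whether alike windows go with like differences was not tested. Duplicated genes share letters throughout, so these windows are not independent observations. Direct repeats of AGGTCA or AGTTCA with 4 bases between, an arrangement that CAR and PXR can bind, had no match in the 14 Cyp2c windows. Over all 32851 windows the repeat of AGGTCA had 5 matches, that of AGTTCA 3 and the mixed repeats 0. Exact repeats were thus rare in general, and neither inexact repeats nor bases outside the windows were searched. The search therefore cannot tell whether the Cyp2c genes have sites for CAR or PXR. Windows of Cyp2c54 and Cyp2c44 were not analysed here.

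In both genotypes most Cyp2c probe sets were higher in replicate 2, and the gaps were wider in Baf60a LKO for 6 of the 8. Baf60a LKO replicate 2 was above replicate 1 on 6 of the 8, as on 46.9% of all probe sets, with a median gap of 0.57. WT replicate 2 was above WT replicate 1 on 7 of the 8, as on 48.1% of all probe sets, with a median gap of 0.15. Over all probe sets the WT arrays were further apart (standard deviation of the gap 0.21 in Baf60a LKO and 0.33 in WT). For Cyp2c29 the Baf60a LKO gap was 1.55, a 2.92-fold spread between pools, and 8 of 45037 probe sets, its own included, were that far apart. The Baf60a LKO gap was 0.93 for Cyp2c37, 0.79 for Cyp2c38, 0.72 for Cyp2c50 and 0.42 for Cyp2c54. It was 0.25 for Cyp2c39, -0.04 for Cyp2c44 and -0.41 for Cyp2c55. The WT gap was widest for Cyp2c55 and Cyp2c37, at 0.42 and 0.40, and for Cyp2c55 and Cyp2c44 it was wider than the Baf60a LKO gap. For the other members it ran from -0.20 (Cyp2c39) to 0.22 (Cyp2c54). The 5 members with the largest genotype differences were thus all higher in Baf60a LKO replicate 2, by 0.42 or more. Cyp2b9, another P450 gene, had a gap of 1.45 the same way, and Nr1i3, the gene of CAR, one of 0.25. The spread of Cyp2c levels among single mice was not measured, since each array holds a pool.

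**Figure D3:**
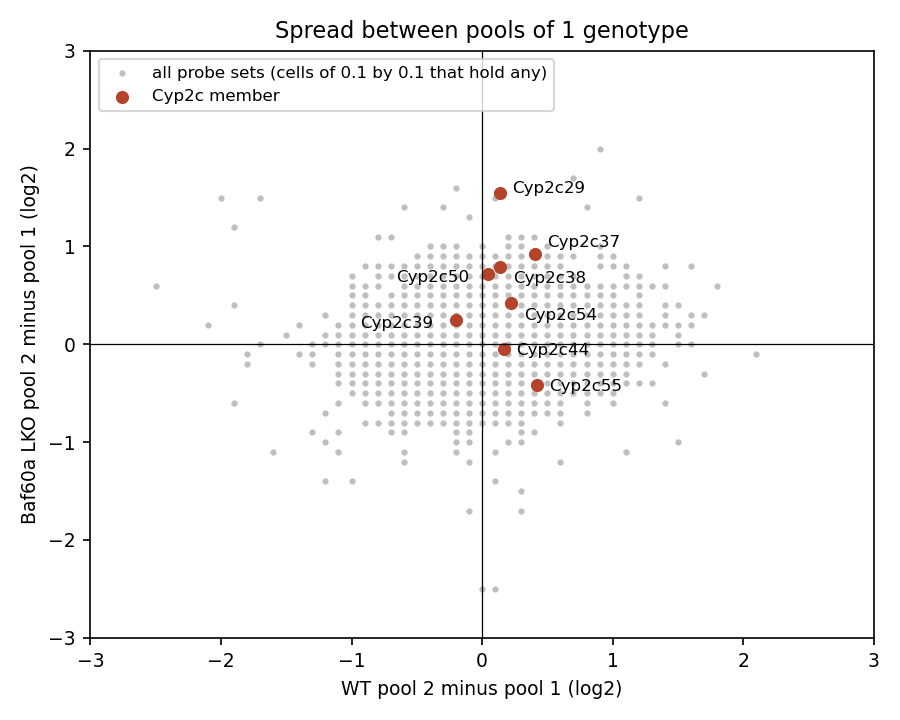
Difference between the 2 Baf60a LKO pools (vertical axis) against that between the 2 WT pools (horizontal axis), both pool 2 minus pool 1 on the log2 scale. Grey points mark each 0.1 by 0.1 cell that holds any of the 45037 probe sets, and red points are the Cyp2c members. Cyp2c29 stands highest of the members, at 1.55 between the Baf60a LKO pools and 0.14 between the WT pools.

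Among regulators of Cyp2c transcription, Nr1i3 fell and the others did not pass. Nr1i3 stood at 6.33 and 6.58 in Baf60a LKO, against 11.21 and 11.26 in WT, a difference of -4.77 ± 0.14 (limma, adjusted p = 0.00116). Of 28 measured of 30 listed, 1 fell, 0 rose and 27 did not pass, where 0.203% of genes fell and 0.115% rose over the array. Onecut1 differed by -0.47 ± 0.15, Nfe2l2 by 0.47 ± 0.20 and Ahr by -0.38 ± 0.13. Hnf4a (-0.19 ± 0.12) and Nr1i2, the gene of PXR (-0.11 ± 0.12), were chosen after their values were seen. The list median was 0.03, beside 0 over all genes.

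Outside the Cyp2c genes, few P450 genes passed the test. Of 13 measured genes from a list of Cyp1a genes and of Cyp2 genes outside Cyp2c, Cyp2d and Cyp2j, 1 fell. This was Cyp2f2, which is known from periportal hepatocytes and the lung. It stood at 10.50 and 10.19 in Baf60a LKO, against 12.21 and 12.12 in WT (-1.82 ± 0.15, limma adjusted p = 0.0293). Cyp2b9 stood at 4.997 and 6.45 in Baf60a LKO, against 10.91 and 9.22 in WT, and did not pass (-4.34 ± 0.67, limma adjusted p = 0.171, but 0.0415 with array medians subtracted). Cyp2b13 (-1.06 ± 0.64) overlapped between groups, and Cyp2g1 differed by -0.76 ± 0.12. Of 8 Cyp2d genes 0 passed, and Cyp2d22 came lowest at -0.99 ± 0.14 (adjusted p = 0.133, but 0.0448 after cyclic loess, 0.0424 with probe sets averaged and 0.0161 with a trended and robust eBayes). Of 5 Cyp3a genes 0 passed, and Cyp3a11, the main Cyp3a gene of adult liver, differed by -0.88 ± 0.20. Only 7 of the 13 genes of the first list, 5 of the 8 Cyp2d and 3 of the 5 Cyp3a genes were above 5 on average. A fall of the dimmer ones could be missed. The 65 named P450 genes outside the members, a set added after the values were seen, include Cyp2c65, Cyp2c68, Cyp2c70 and dim genes. Of these 65, 2 fell (Cyp2f2 and Cyp4a14), 0 rose and 63 did not pass. Cyp7b1, chosen after its values were seen, had a larger difference than these 2 and just missed (-2.19 ± 0.24, limma adjusted p = 0.0573). Of the 65, 44 had a lower mean and 21 a higher one, with a median of -0.14.

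Lists of genes that act beside the Cyp2c enzymes had median differences near 0. Of 13 measured genes for electron transfer and haem, 0 passed, 6 were lower and 7 higher, and the median was 0.00. The gene of the reductase POR was not among these 13. Cyb5r1, a cytochrome b5 reductase gene, differed by 0.52 ± 0.13, Alas1, the first enzyme of haem synthesis, by -0.44 ± 0.12, and Alad, the next one, by -0.38 ± 0.16. Hmox1, which degrades haem, differed by 0.51 ± 0.38, and by -0.10 without WT replicate 1. Of 26 measured genes of epoxide and arachidonate metabolism, 1 fell, 0 rose and 25 did not pass, with a median of 0.01. Only 16 of the 26 were above 5 on average over the arrays, and a fall of the dimmer ones could be missed. The one that fell, Cyp4a14, a fatty acid omega-hydroxylase gene, stood at 9.80 and 10.27 in Baf60a LKO, against 12.05 and 12.17 in WT (-2.07 ± 0.19, limma adjusted p = 0.0330). Cyp4a12a, which makes hydroxylated arachidonate, just missed at -1.54 ± 0.16 (adjusted p = 0.0505) and passed in 8 of the other settings, with adjusted p of 0.00542 to 0.0464. Cyp2j9 differed by 0.74 ± 0.28 and Alox15 by -0.55 ± 0.16. The epoxide hydrolase genes Ephx1 (0.01 ± 0.13) and Ephx2 (0.18 ± 0.12) were chosen after their values were seen.

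**Figure D4:**
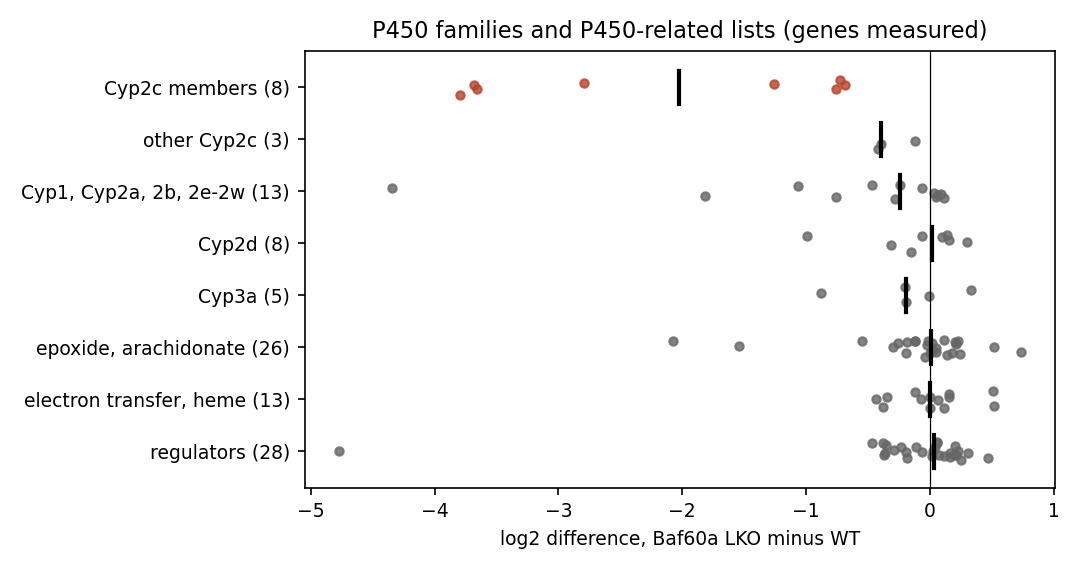
Log2 difference of Baf60a LKO minus WT (horizontal axis) of each measured gene in the Cyp2c members (red) and in lists of other P450 families and related genes (grey), with the number of genes in brackets and the median as a black bar. The member median is -2.03, and the list medians lie between -0.39 and 0.03. Cyp2j genes are in the epoxide and arachidonate list, not in that of Cyp1 and Cyp2 genes.

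Several Cyp2c genes are known as pericentral, that is, active in hepatocytes near the central vein. Of 14 measured pericentral genes from a list without Cyp2c members, 0 passed, 10 were lower and 4 higher, with a median of -0.25. Lgr5 differed by -0.80 ± 0.17, Gstm3 by -0.57 ± 0.12, Cyp1a2 by -0.47 ± 0.13 and Aldh1b1 by -0.46 ± 0.18. Of 13 periportal genes, 2 fell and 1 rose, and the median was 0.05. Hsd17b6 (-4.80 ± 0.19, limma adjusted p = 0.00286) and Cyp2f2 fell, and Cdh1, the E-cadherin gene, rose (1.42 ± 0.15, adjusted p = 0.0475). Uroc1 differed by -0.71 ± 0.12.

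Liver markers matched the labelled tissue on each array. The 10 measured hepatocyte markers had mean levels of 13.13 and 13.20 in Baf60a LKO and 13.13 and 13.16 in WT, and 0 passed. Of 8 cholangiocyte markers 7 were higher in Baf60a LKO and 0 passed. Their levels were low, with 3 of the 8 above 5 on average, and the mean levels were 4.54 and 4.83 in Baf60a LKO against 4.08 and 4.24 in WT. Pkhd1 differed by 1.34 ± 0.30, Epcam by 1.17 ± 0.21, Cldn7 by 0.89 ± 0.16 and Krt23 by -0.47 ± 0.13. The part of these markers in the Cyp2c differences was not tested. Mean levels of 10 endothelial markers were 7.86 and 7.76 in Baf60a LKO and 7.79 and 7.95 in WT, and those of 10 macrophage markers were 8.84 and 8.77 in Baf60a LKO and 8.53 and 8.96 in WT. The medians of the stellate, lymphocyte and adipocyte lists were -0.09, 0.00 and -0.20, with 0 genes passed in any. In bulk liver, fewer cells that express a gene and less RNA per cell cannot be told apart.

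The 5 genes whose 4-array profiles came closest to the mean Cyp2c profile were Cyp4a14, Ces1g, Aatk, Tpm2 and Themis. Likeness was the root mean square distance over the 4 arrays between profiles centred on their own mean, and the mean member profile was -1.35 and -0.82 in Baf60a LKO and 1.00 and 1.17 in WT. Cyp4a14 was nearest, at 0.05, followed by the carboxylesterase gene Ces1g at 0.17, Aatk at 0.17, Tpm2 at 0.18 and Themis at 0.21. Ces1g stood at 7.03 and 7.78 in Baf60a LKO, against 9.83 and 9.91 in WT, and so also had its higher Baf60a LKO value in replicate 2. Members themselves lay at distances of 0.47 to 0.82 from their mean. With 4 arrays, likeness mostly restates the genotype difference.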

How the data were processed

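RNA pools from liver, 2 of Baf60a LKO and 2 of WT mice, were each read on 1 array, and the labelled genotype set the group. The authors deposited log2 values for each probe set, as the range of the values shows. Per the submitters' processing notes, RMA, affy and limma were used, with no versions. RMA quantile normalization sets the arrays' distributions nearly equal. Arrays hold no read depth, and the number of arrays limits the precision. Of 45101 probe sets, 64 controls were left out.

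Probe sets were named from the platform annotation and RefSeq (GRCm38.p6) by Entrez number: 34945 had 1 symbol, 932 several and 9160 were not listed. A gene was represented by its brightest probe set. The genotype test was a two-sided moderated one from limma 3.58.1, run under R 4.3.3 (lmFit and eBayes, Benjamini-Hochberg over all 45037 probe sets), with 2 residual and 3.74 prior degrees of freedom and no filter on level. Promoter windows were aligned with Biopython 1.88, and figures drawn with matplotlib 3.10.9. The test was run on simulated data for 45037 probe sets. Recovered were 5.97% of 67 changes of 1 on the log2 scale, 94.0% of 67 changes of 2 and 98.5% of 66 changes of 4. There was 1 false call among 133. The simulated noise was normal and independent, with spreads drawn from the prior that limma had fitted. It thus met the assumptions of the test, and cannot show how the test behaves where real arrays depart from them.

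The members, lists, tests and alternatives were chosen with earlier results of these data known. Named genes were the members, the other measured Cyp2c genes, in each list described those past the threshold and up to 4 with the largest difference, the 5 most alike and the 3 nearest measured neighbours of each run. Any gene named beyond these is marked in the text.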

Additional observations from a re-analysis of the deposited data

How the results depend on the processing

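All 8 Cyp2c genes had a lower mean in Baf60a LKO under each alternative run. Without _x_at and _s_at probe sets Cyp2c44 drops out and the median over the remaining 7 was -2.79. With 1 array left out the median ran from -2.61 to -1.49. The number of Cyp2c genes called lower was 3, and 0 with any 1 array left out, and 0 with the replicate block. An array left out or a block leaves fewer degrees of freedom. With a trended and robust eBayes the number of Cyp2c genes called lower was 4, with Cyp2c44 added. The labels give the pools a replicate number only, and whether same-numbered pools shared a batch is not known. Deviations of same-numbered arrays correlated at 0.15 over probe sets. The replicate block gave 4 calls in all, 3 lower and 1 higher, with 3929 of 45037 probe sets at an unadjusted p under 0.05 in limma. Calls in all numbered 84, and 139 after a second quantile normalization, 162 after cyclic loess, 146 with array medians subtracted, 173 with a trended and robust eBayes and 143 at adjusted p under 0.10, against 0 with any 1 array left out. Lower calls numbered 54, and 83 with loess and 99 with the trended fit. Higher calls numbered 30, and 67 with quantiles, 79 with loess, 78 with medians subtracted, 55 in the brighter 50% of probe sets, 74 with the trended fit and 71 at adjusted p under 0.10.

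Of 734 values of other named genes under the alternatives, 664 kept their direction and side of the threshold, 44 lost it (36 with 1 array left out, 7 with the replicate block, 1 with probe sets averaged), 16 gained it and 10 changed sign. Themis was at -0.74 (limma, adjusted p = 0.0756) with its probe sets averaged. With 1 array left out, Bloc1s2 ran from -0.015 to 0.21, Cwf19l1 from -0.064 to 0.28, Cyp2c65 from -0.29 to 0.045, Cyp2c70 from -0.88 to 0.045, Hmox1 from -0.10 to 1.11 and Pdlim1 from -0.067 to 0.21. Cwf19l1 was at -0.0027 after quantiles, and Pdlim1 at -0.014 after loess. With probe sets averaged, Noc3l was at 0.12 and Tbc1d12 at -0.039. The causes were not tested. Probe sets annotated to a member and a further gene gave no value because none exists. With 2 pools a group and probes of related genes not told apart, the order of Cyp2c50, Cyp2c54 and Cyp2c37 is not resolved.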

Other observations

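Cyp2c29 ranked 5th of 18193 genes by the gap between the 2 Baf60a LKO pools, and 21 genes had a gap of at least 1. Among them, higher in replicate 2, were Lcn2 (8.17 and 10.21), Orm2 (9.62 and 11.34), Mt2 (7.40 and 8.91), Cyp2b9 (4.997 and 6.45) and Hspa1b (8.25 and 9.59). Higher in replicate 1 were Slc35f1 (6.09 and 3.55), Mpst (8.15 and 5.67), Egr1 (8.56 and 7.35) and Myc (6.21 and 5.10). Lcn2 and Orm2 are acute phase genes, and Egr1 and Myc immediate early genes. Between the WT pools 97 genes were at least 1 apart. These genes were chosen after their values were seen.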
